A study of Mus musculus with 18 samples.

Results

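Transcripts of 32 genes of the complement system were followed in mouse liver: 5 of the classical pathway, 7 of the lectin pathway, 4 of the alternative pathway with C3, 7 of the terminal pathway, 7 regulators and the 2 anaphylatoxin receptors. The genes were listed by symbol, with earlier results of these data known, and all 32 were found among the 56691 genes of the table. Bulk RNA sequencing covered livers of C57BL/6 mice of WT genotype, with 6 libraries from each of 3 groups. IR-Ori and IR mice had the portal triad clipped, with ischemia in about 70% of the liver for 1 h, followed by 6 h of reperfusion. IR-Ori mice also received oridonin, a plant diterpenoid, at a dose, route and time for which the sources used here give no value. Sham mice were anaesthetised and had a laparotomy without clipping, and the same anaesthesia and opening of the abdomen apply to the other two groups. Age and sex were likewise not given.

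Complement is a protein cascade of the blood in which proteases activate one another in sequence. The classical pathway starts from antibody-bound C1, the lectin pathway from lectins that bind microbial or damaged surfaces, and the alternative pathway from C3 itself; all of them cut C3 and then C5, which releases the anaphylatoxins C3a and C5a and starts the membrane attack complex. Hepatocytes make most of the circulating components, whereas the anaphylatoxin receptors are known mainly from neutrophils, monocytes and macrophages. Regulators in plasma and on cell membranes hold the cascade in check.

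The libraries held 12770586 to 16536186 counts in IR-Ori, 12449529 to 16625908 in IR and 12755980 to 19798188 in sham. Mitochondrially encoded genes took 14.1 to 32% of the counts in IR-Ori (median 29.2%), 6.52 to 42.9% in IR (median 17%) and 10.3 to 42.8% in sham (median 19.7%). IR replicate 1 and sham replicate 2 stood apart with over 40%. Hepatocyte markers identified the tissue, with a summed level of 28177 to 45382 in IR-Ori, 26579 to 42260 in IR and 16256 to 50960 in sham, the lowest in sham replicate 2; 0 of 9 markers tested differed between any groups at an adjusted p under 0.05 (edgeR). Levels are FPKM, recomputed here with library sizes after trimmed mean of M-values (TMM) normalization, which is also that of the test; FPKM divides a count by exonic gene size and by library size. In bulk tissue, fewer cells of a type and less RNA per cell cannot be told apart.

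The promoters of the 2 genes that passed the threshold between groups (C5ar1 and C1rl), of the second anaphylatoxin receptor (C3ar1) and of a neighbouring pair of genes whose levels moved apart between libraries (C8a and C8b) are printed so that the letters can be compared with the measurements. Each runs from 250 bases before to 50 bases after the start of the gene, 5′ to 3′ on the gene's own strand, from RefSeq on build GRCm38.p6. C5ar1 lies at chr7:16259289-16259588 (minus strand), C3ar1 at chr6:122856108-122856407 (minus strand), C1rl at chr6:124492863-124493162 (plus strand), C8a at chr4:104876349-104876648 (minus strand) and C8b at chr4:104766067-104766366 (plus strand). Capitals mark matches, on either strand, to the letters searched.
C5ar1: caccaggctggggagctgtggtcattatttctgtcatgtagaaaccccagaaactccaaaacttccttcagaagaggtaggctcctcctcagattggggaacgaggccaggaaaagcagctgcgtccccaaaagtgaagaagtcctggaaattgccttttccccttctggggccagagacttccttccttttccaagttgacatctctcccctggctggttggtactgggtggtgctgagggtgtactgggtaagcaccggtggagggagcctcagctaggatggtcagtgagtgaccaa
C3ar1: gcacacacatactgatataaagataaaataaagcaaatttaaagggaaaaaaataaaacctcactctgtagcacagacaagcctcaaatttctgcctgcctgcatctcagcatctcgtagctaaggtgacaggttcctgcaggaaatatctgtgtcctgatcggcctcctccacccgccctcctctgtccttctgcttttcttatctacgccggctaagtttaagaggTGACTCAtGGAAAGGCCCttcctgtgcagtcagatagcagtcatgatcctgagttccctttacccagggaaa
C1rl: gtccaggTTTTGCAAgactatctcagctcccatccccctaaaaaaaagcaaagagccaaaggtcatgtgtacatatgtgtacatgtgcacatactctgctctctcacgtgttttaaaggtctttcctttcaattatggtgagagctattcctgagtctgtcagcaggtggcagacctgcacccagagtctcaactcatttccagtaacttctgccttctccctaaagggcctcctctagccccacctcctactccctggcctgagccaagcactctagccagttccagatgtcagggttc
C8a: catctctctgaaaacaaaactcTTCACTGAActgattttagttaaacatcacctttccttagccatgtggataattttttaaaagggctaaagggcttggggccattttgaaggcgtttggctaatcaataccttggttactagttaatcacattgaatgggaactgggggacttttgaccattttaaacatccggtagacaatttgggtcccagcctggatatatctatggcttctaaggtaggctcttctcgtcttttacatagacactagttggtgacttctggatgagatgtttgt
C8b: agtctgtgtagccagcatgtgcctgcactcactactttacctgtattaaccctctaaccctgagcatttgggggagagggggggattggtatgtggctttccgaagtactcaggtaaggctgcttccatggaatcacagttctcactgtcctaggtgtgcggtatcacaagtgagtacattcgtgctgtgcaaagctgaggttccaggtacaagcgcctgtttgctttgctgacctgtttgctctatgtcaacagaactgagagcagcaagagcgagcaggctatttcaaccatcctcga
The letters searched were GGG, any 5 bases, CC (NF-kB), TTCNNNGAA (STAT), TTGCNNAA (C/EBP), GAAA, any 2 bases, GAAA (interferon response), TGANTCA (AP-1) and GTTAAT, any base, ATT (HNF1), all on both strands. The C5ar1 and C8b windows held none of them. The C3ar1 window held the AP-1 letters and, after a gap of 1 base, the NF-kB letters on the minus strand. The C1rl window held the C/EBP letters on the minus strand and the C8a window the STAT letters. Among 24 members with a promoter in the table (26 promoters), NF-kB letters stood in 9 promoters, STAT in 6, C/EBP in 5, interferon response in 3 and AP-1 and HNF1 in 2 each. Of all 32851 promoters of the same length, 50.8% held the NF-kB letters, 8.3% STAT, 10.8% C/EBP, 3.44% interferon response, 7.81% AP-1 and 0.399% HNF1. A match describes the letters and is not a bound site.

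The 32 members spanned a wide range of levels. Vtn, which encodes vitronectin, a plasma inhibitor of the membrane attack complex, had the highest median level in each group (1168 in IR-Ori, 932 in IR and 1067 in sham), and C3, on which all pathways converge, came next (875, 921 and 802 in the same order of groups). Vtn took a median of 25.6% of the summed level of the members in IR-Ori, 22.3% in IR and 23.7% in sham, and C3 took 19.9%, 24.2% and 18.2%. The levels of both genes overlapped between all groups. The share of C3 overlapped between IR-Ori and IR and between IR-Ori and sham. It was 22.8 to 30.9% in IR and 16.1 to 20.5% in sham, without overlap. The share of C1rl did not overlap either, at 0.343 to 0.571% in IR and 0.602 to 0.817% in sham. Both genes were picked by their values from the shares of all 32 members, and no rate over all genes was computed for shares. A share also depends on the levels of the other members, and neither difference was tested. At the other end stood Colec10, Cd55, C7, C3ar1, C5ar1 and Cfd, with median levels of 2.82 or less in each group. The summed level of all members was 3635 to 4750 in IR-Ori (median 4222), 2675 to 5481 in IR (median 3865) and 3344 to 4759 in sham (median 4474), and the 3 ranges overlapped.

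**Figure D1:**
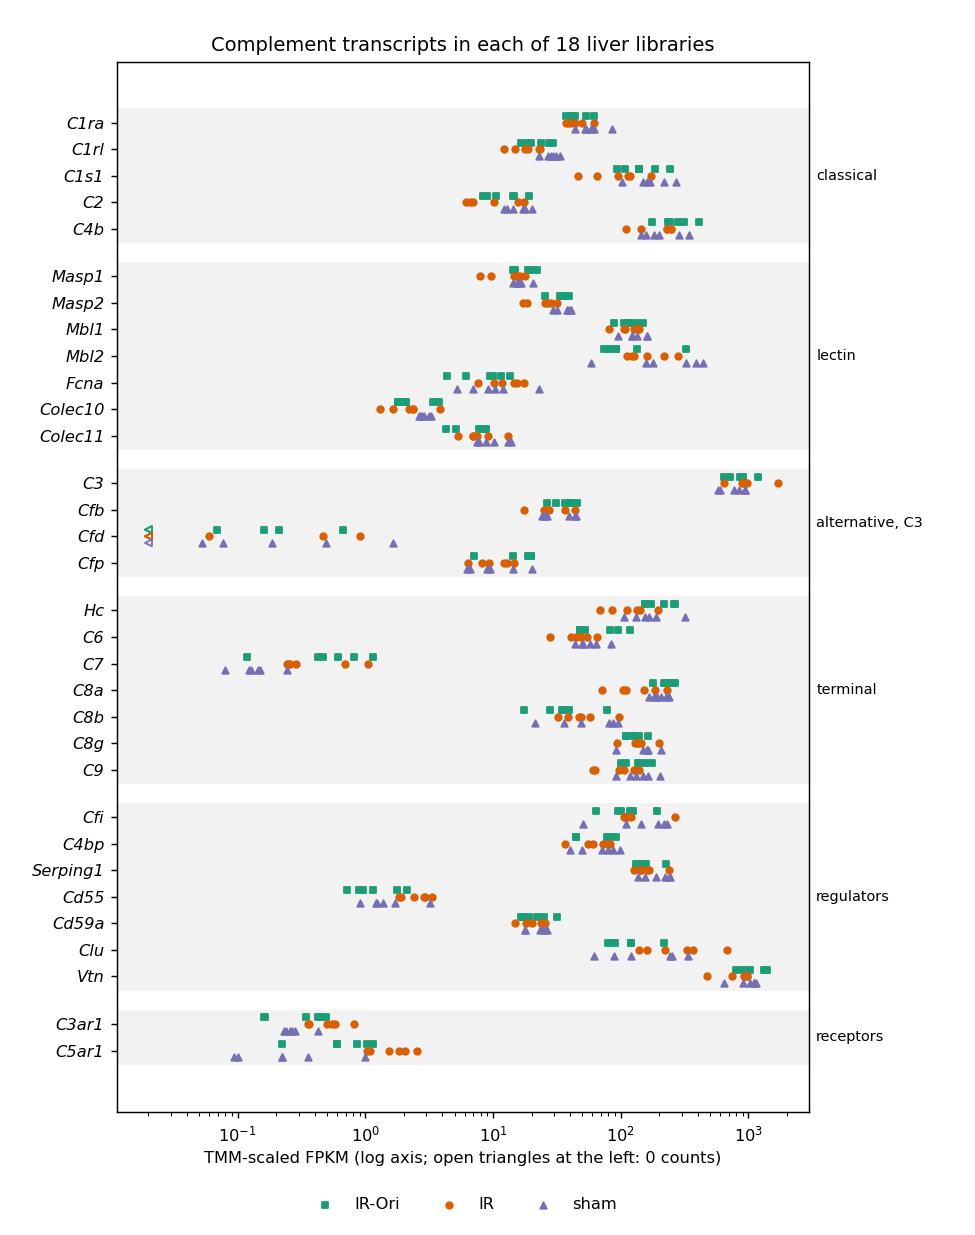
Level of each complement gene in each of the 18 libraries (x axis, TMM-scaled FPKM on a log axis; 1 point per library; squares IR-Ori, circles IR, triangles sham; open triangles at the left edge are libraries with 0 counts). Vtn and C3 stand at the right in all groups, and C5ar1 is the only gene drawn whose IR points all lie above its sham points.

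The comparison of IR with sham asks what 1 h of ischemia and 6 h of reperfusion did to these transcripts. C5ar1, the receptor for C5a, was higher in IR livers by a log2 fold change of 2.35 ± 0.50 (SE), and C1rl, a C1r-like protease gene, was lower by -0.65 ± 0.19. These were the only members of 31 tested to pass an adjusted p of 0.05 in edgeR's quasi-likelihood test. That is 1 member higher, where 5.52% of all 14595 genes tested were higher, and 1 lower, where 2.36% of all genes were lower, so neither share stands far from its background. Without regard to the test, 24 of the 31 members had a negative log2 fold change and 7 a positive one, where 7264 of all 14595 genes were negative. The median was -0.21 against 0.00 over all genes. Among libraries with a mitochondrial share of at least 15%, 17 members were negative and 14 positive (median -0.01). Among those under 15%, 20 were negative and 11 positive (median -0.43), and the difference between these subsets was not tested. With all libraries, at an unadjusted p under 0.05, 4 members were higher and 5 lower, against 13.6% and 9.87% of all genes. The 1 member not tested was Cfd, factor D, which cuts factor B and is known mainly from fat: it had 0 to 23 counts per library and levels of 0 to 0.67 in IR-Ori, 0 to 0.913 in IR and 0 to 1.63 in sham. Of 3 adipocyte markers tested, Cidec and Fabp4 rose in IR; the summed level of all 7 was 6.26 to 21.4 in IR-Ori, 15.8 to 112 in IR and 5.6 to 9.84 in sham, and the defining markers Adipoq and Lep had at most 3 counts in any library.

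Of the anaphylatoxin receptors, C5ar1 (ENSMUSG00000049130) was at 0.224, 0.731 and 1.15 in IR-Ori livers (lowest, median and highest of 6 libraries, TMM-scaled FPKM), at 1.03, 1.68 and 2.54 in IR livers and at 0.0942, 0.223 and 0.989 in sham livers. All IR libraries lay above all sham libraries, with 1 sham library (replicate 5) just below the lowest IR library; the IR-Ori libraries lay between and overlapped both. It was the only member without overlap between IR and sham in the higher direction, where 2.52% of all genes had none; in the lower direction 0 members and 1.37% of all genes had none. The adjusted p was 0.00809 (edgeR), on 38 to 119 counts per IR library and 4 to 36 per sham library, and it stayed between 0.00204 and 0.0232 when any 1 library was left out. Among libraries with a mitochondrial share of at least 15% the log2 fold change was 1.73 with an adjusted p of 0.293, and among those under 15% it was 3.04 with an adjusted p of 0.0181; the difference between these values was not tested. In the subset of at least 15%, 14 of 14847 genes passed in this comparison. C3ar1, the receptor for C3a, was at 0.162, 0.382 and 0.487 in IR-Ori, at 0.354, 0.523 and 0.815 in IR and at 0.229, 0.261 and 0.426 in sham. Here 4 IR libraries lay above all sham libraries and the ranges overlapped (log2 fold change 0.89 ± 0.32, adjusted p = 0.0934, edgeR).

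Other complement receptors moved in the same comparison. Of 33 further complement genes, 26 were tested, and 3 of them rose in IR while 0 fell, where 5.52% and 2.36% of all genes did; all 3 were receptors. Itgam and Itgb2 encode the chains of complement receptor 3, which binds fragments of C3b on coated particles, and Cd93 was first described as a C1q receptor. Itgam was at 0.923, 1.5 and 2.09 in IR and at 0.147, 0.273 and 0.604 in sham, with no overlap (log2 fold change 2.32 ± 0.33, adjusted p = 0.000696). Itgb2 was at 1.46, 2.5 and 3 in IR and at 0.54, 0.975 and 1.8 in sham, with overlap in 1 IR library (1.18 ± 0.27, adjusted p = 0.0127). Cd93 was at 1.15, 2.9 and 6.41 in IR and at 0.224, 0.405 and 0.945 in sham, with no overlap (2.95 ± 0.49, adjusted p = 0.00192). Among libraries with a mitochondrial share of at least 15%, where only 14 of all genes passed, the log2 fold changes were 2.03 for Itgam (adjusted p = 0.147), 0.66 for Itgb2 (adjusted p = 0.426) and 2.16 for Cd93 (adjusted p = 0.0891). C5ar2, the second C5a receptor, had a log2 fold change of 0.47 (adjusted p = 0.563), and Vsig4, the C3b receptor of Kupffer cells, one of -0.21 (adjusted p = 0.788).

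Markers of neutrophils and monocytes rose in IR beside the receptors, and some markers of other cell types rose too. In IR against sham all 4 B cell markers tested had negative log2 fold changes (median -0.87, 0 called). The 1 T and NK cell marker tested had -0.33 and was not called. All 8 neutrophil markers tested rose in IR against sham, and their summed level was 7.62 to 67.2 in IR-Ori (median 30), 73.4 to 281 in IR (median 94.6) and 3.78 to 29.1 in sham (median 11.9); Ly6g and Camp had at most 4 counts in any library and were not tested. Of 7 monocyte and recruited macrophage markers tested, among them Itgam itself, 5 rose in IR against sham, and their summed level was 75.4 to 130 in IR-Ori, 125 to 189 in IR and 61.7 to 127 in sham; Ly6c2 was near 0 and not tested. Of 8 markers of sinusoidal endothelium, 2 rose, Lyve1 and Pecam1. Of 5 cholangiocyte markers tested 1 was called higher, and of 8 stellate cell and fibroblast markers 1. Of 5 erythroid markers 0 were called, with 3 higher at an unadjusted p under 0.05 (edgeR). None of 8 Kupffer cell markers passed, with summed levels of 43.9 to 75.2 in IR-Ori, 40.7 to 86 in IR and 28.4 to 71.6 in sham. The part of these cells in the receptor values was not tested.

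**Figure D2:**
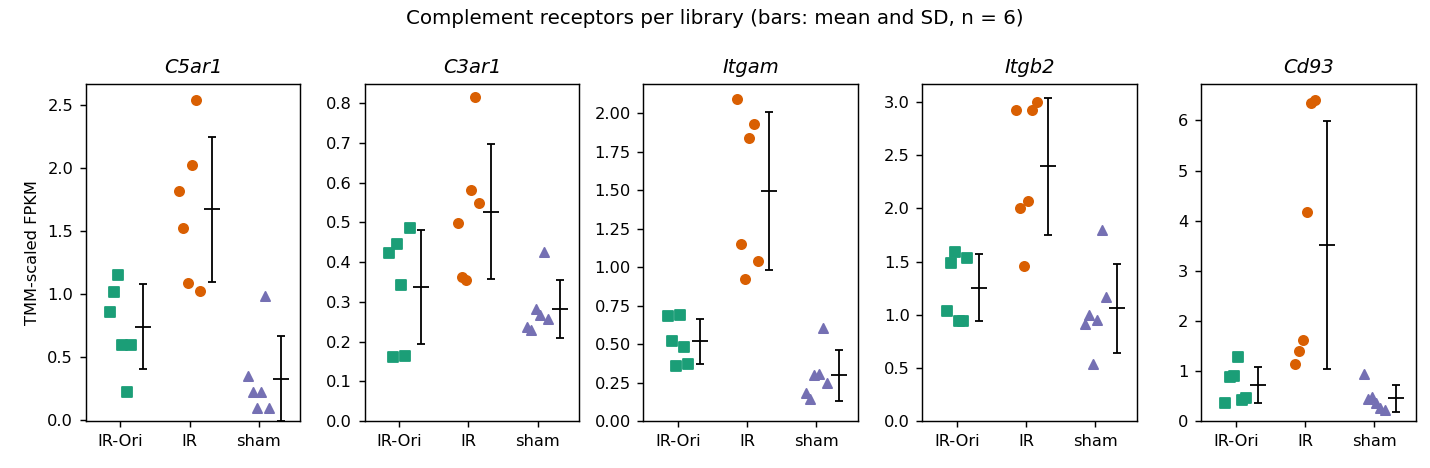
Levels of 5 complement receptor genes in each library (y axis, TMM-scaled FPKM; 6 points per group; the bar beside each group is the mean with the SD). All IR points lie above all sham points for C5ar1, Itgam and Cd93, and the IR-Ori points of C5ar1 run from 0.224 to 1.15.

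In the classical pathway, C1r and C1s are the proteases of the C1 complex, and C2 and C4 form the convertase they make. C1rl (ENSMUSG00000038527), whose human counterpart cuts the haptoglobin precursor, was at 16.5, 21.8 and 29.3 in IR-Ori, at 12.1, 18.3 and 23.4 in IR and at 22.8, 29.1 and 33.4 in sham. In 4 of 6 IR libraries the level was below all sham libraries, and the other two stood just inside the sham range. The adjusted p of 0.04 (edgeR) was close to the threshold: it reached up to 0.1 when 1 library was left out, and the call was lost without any one of IR replicates 2, 3, 4 or 5 or sham replicates 3, 4 or 5. It was 0.426 among libraries with a mitochondrial share of at least 15% (log2 fold change -0.42) and 0.059 among those under 15% (-0.94). All 5 genes of the pathway had negative log2 fold changes, from -0.80 for C1s1 (adjusted p = 0.119) and -0.57 for C2 (adjusted p = 0.213) to -0.12 for C4b (adjusted p = 0.839). Without IR replicate 1, C1s1, C2, Masp2 and C8a passed as well, with 5 members lower in place of 1; that fit called 640 of 14731 genes lower, against 345 of 14595 with all libraries.

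C4b was at 176, 261 and 407 in IR-Ori, at 110, 231 and 248 in IR and at 145, 192 and 344 in sham, and all 3 ranges overlapped. C4a is a near-identical copy of C4b, so reads may have been divided between them; the level of C4b was 8.99 to 26.9 times that of C4a in IR-Ori, 21.7 to 50.2 times in IR and 12.3 to 40.7 times in sham. C1ra and C1s1 also have copies, C1rb and C1s2, which had at most 6 and 4 counts in any library. C1rl, C1ra and C1s1 are neighbours on chromosome 6, and C4b, Cfb and C2 on chromosome 17.

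Of the lectin pathway, 0 of 7 genes passed, and 6 of 7 log2 fold changes were negative. Mbl1 and Mbl2 encode the 2 mouse mannose-binding lectins, which start the pathway on sugar-bearing surfaces. Mbl1 was at 88.5, 119 and 150 in IR-Ori, at 80.8, 118 and 138 in IR and at 94.9, 128 and 161 in sham, and Mbl2 at 73.6, 91.1 and 327 in IR-Ori, at 112, 143 and 283 in IR and at 58.1, 251 and 438 in sham. Mbl1 kept within 1.71-fold inside each group, whereas Mbl2 spread 4.45-fold in IR-Ori, 2.52-fold in IR and 7.55-fold in sham. The log2 fold changes were -0.19 ± 0.19 for Mbl1 (adjusted p = 0.589) and -0.59 ± 0.43 for Mbl2 (adjusted p = 0.439, edgeR). Masp2, the protease that cuts C4 and C2, had -0.56 ± 0.18 and an adjusted p of 0.0552 in edgeR, and DESeq2 called it. Tardbp overlaps Masp2 on the opposite strand with 1752 to 3989 counts per library, beside 773 to 2203 for Masp2, and the sources used here do not give the strand setting of the counting, so the value of Masp2 is uncertain. The ficolin Fcna, the collectins Colec10 and Colec11 and the protease Masp1 ranged between -0.34 and 0.21 with adjusted p values of 0.424 or more.

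C3 was at 646, 875 and 1182 in IR-Ori, at 641, 921 and 1696 in IR and at 577, 802 and 940 in sham. The high IR value came from replicate 6 alone, and the ranges overlapped (log2 fold change 0.38 ± 0.26, adjusted p = 0.398, edgeR). Cfb, factor B, the protease of the alternative C3 convertase, was at 26.5, 38.3 and 45.2 in IR-Ori, at 17.5, 26.4 and 44 in IR and at 24, 32.8 and 44.2 in sham (-0.21 ± 0.23, adjusted p = 0.632). Its groups overlapped nearly throughout. Cfp, properdin, which stabilises that convertase, had -0.05 ± 0.30 (adjusted p = 0.935).

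The terminal pathway builds the membrane pore from C5, which Hc encodes in the mouse, and C6 to C9. Hc was at 155, 194 and 264 in IR-Ori, at 68.7, 123 and 196 in IR and at 106, 160 and 316 in sham; C9, the pore-lining component, was at 99.7, 138 and 177 in IR-Ori, at 60.3, 101 and 140 in IR and at 91.1, 141 and 203 in sham. In both genes 2 IR libraries were below all sham libraries and the rest overlapped them. The log2 fold changes were -0.52 ± 0.29 for Hc (adjusted p = 0.287) and -0.53 ± 0.24 for C9 (adjusted p = 0.192, edgeR); C9 passed among libraries under 15% mitochondrial share, at -1.16, and stood at 0.01 among the others. C8a was at 180, 244 and 265 in IR-Ori, at 70.7, 131 and 232 in IR and at 167, 200 and 240 in sham. For C8a, 4 IR libraries lay below all sham libraries (log2 fold change -0.51 ± 0.24, adjusted p = 0.213). C6, C8b and C8g had -0.31, -0.20 and -0.15, none of which passed.

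C7 was the exception in direction and was near the lower end of detection, at 0.119, 0.534 and 1.15 in IR-Ori, at 0.242, 0.273 and 1.04 in IR and at 0.0791, 0.136 and 0.243 in sham, on 3 to 44 counts per library. In IR-Ori and in IR, 5 of 6 libraries lay above all sham libraries. Its log2 fold change was 1.64 ± 0.51 in IR against sham with an adjusted p of 0.0505 (edgeR), just outside the threshold; DESeq2 called it.

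Of the 7 regulators none passed in IR against sham. Serping1 encodes C1 inhibitor, which blocks C1r, C1s and the MASP proteases, and was at 132, 154 and 226 in IR-Ori, at 128, 152 and 239 in IR and at 137, 204 and 241 in sham (-0.27 ± 0.21, adjusted p = 0.474, edgeR). The ranges overlapped almost fully. Cd55, decay-accelerating factor, which breaks up C3 convertases on membranes, was at 0.712, 1.05 and 2.12 in IR-Ori, at 1.82, 2.65 and 3.32 in IR and at 0.913, 1.3 and 3.22 in sham. Clu, clusterin, a secreted chaperone and inhibitor of the membrane attack complex, was at 79.1, 105 and 219 in IR-Ori, at 138, 277 and 673 in IR and at 61.2, 182 and 338 in sham. For both genes the IR median was the highest of the 3. For Cd55 the only sham library inside the IR range was replicate 1, at 3.22 (0.65 ± 0.30, adjusted p = 0.199, edgeR). For Clu sham replicates 1, 3 and 4 lay inside it, at 338, 251 and 242 (0.78 ± 0.43, adjusted p = 0.285, edgeR). Cfi, C4bp, Cd59a and Vtn lay between -0.24 and -0.10. Cd55b, the copy of Cd55, had at most 3 counts in any library, and Cd59b, the copy of Cd59a, 7 to 57.

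**Figure D3:**
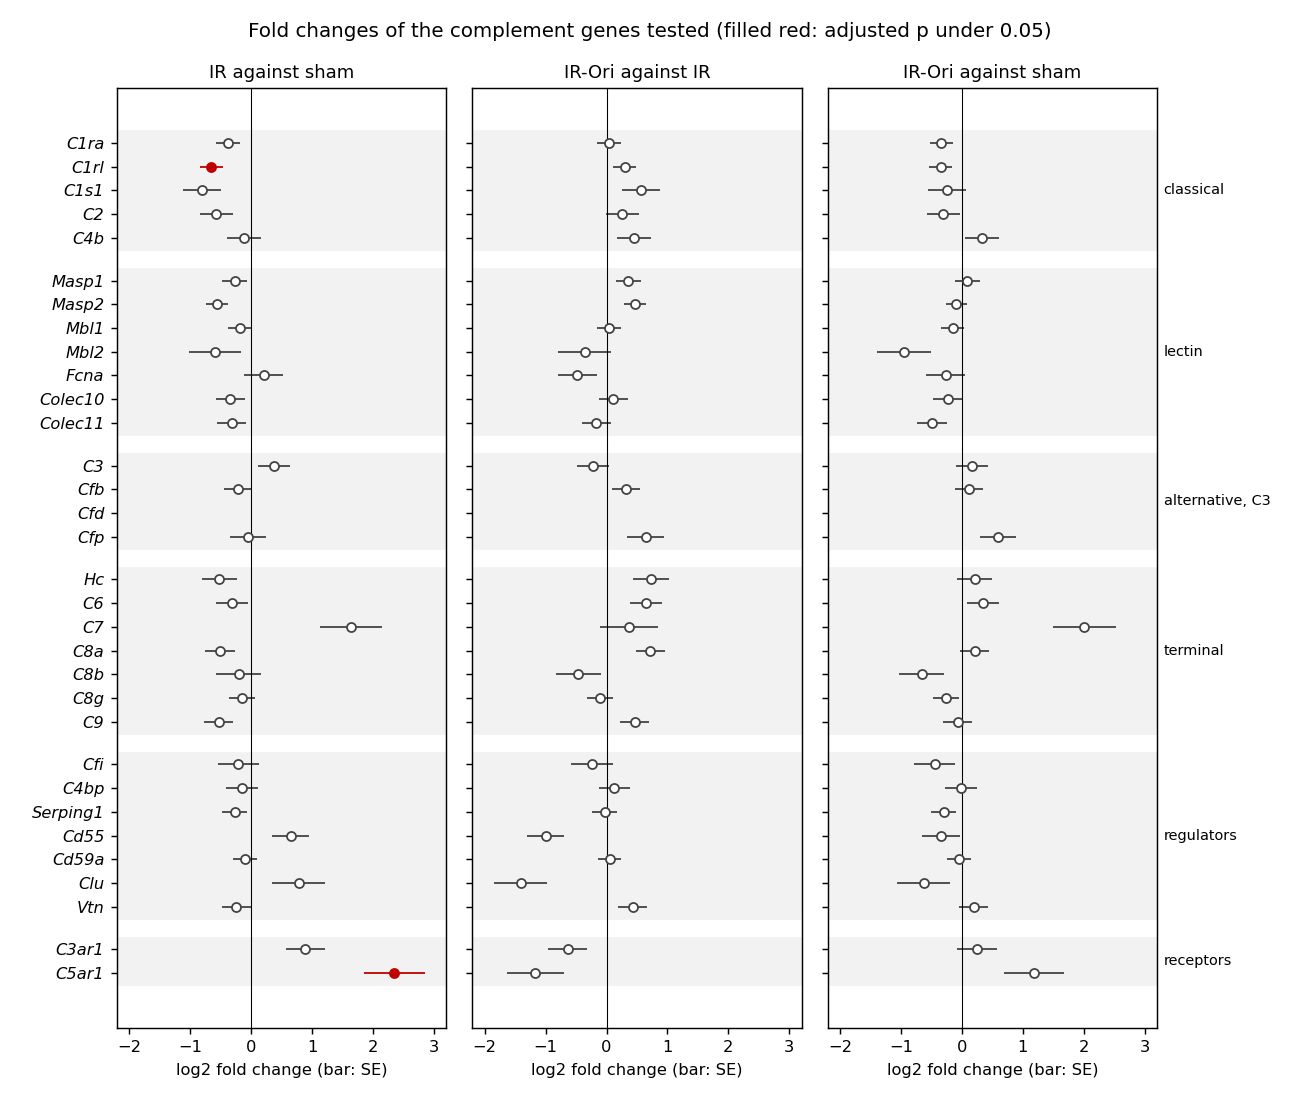
Log2 fold change of the 31 complement genes tested in each of the 3 comparisons (x axis; points with SE bars; filled red where the adjusted p is under 0.05, open otherwise; Cfd was not tested). C5ar1 at 2.35 and C1rl at -0.65 in IR against sham are the only filled points.

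The comparison of IR-Ori with IR asks what oridonin did in the reperfused liver. No member of 31 passed in edgeR, where 0.596% of all genes tested were higher and 3.01% lower. At an unadjusted p under 0.05, 5 members were higher (Masp2, Cfp, Hc, C6 and C8a) and 3 lower (Cd55, Clu and C5ar1), against 9.81% and 14.4% of all genes. No member was free of overlap between IR-Ori and IR in either direction, where 0.644% of all genes were in the higher and 1.27% in the lower one. DESeq2 called 1 higher, C8a, and 2 lower, Cd55 and Clu; limma called none. The median log2 fold change of the members was 0.11, and -0.00 over all genes. The IR libraries enter this comparison and that of IR with sham, so the values of both are given side by side without reading their opposite signs as a result.

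The smallest p values belonged to Cd55, Clu and C8a, whose levels stand above. Cd55 had a log2 fold change of -1.0 ± 0.31 (adjusted p = 0.0684), with 5 of 6 IR-Ori libraries below all IR libraries. Clu had -1.41 ± 0.44 (adjusted p = 0.0719), also with 5 of 6 below. IR-Ori replicate 5 was the library inside the IR range for both genes. C8a had 0.72 ± 0.24 (adjusted p = 0.0916, edgeR), with 4 of 6 IR-Ori libraries above all IR libraries. The median mitochondrial share was 29.2% in IR-Ori and 17% in IR, with overlapping ranges. Within groups, Cd55 and Clu were lower and C8a higher in libraries with a larger share. The part of the share in the differences between groups was not tested. With that share in the model, the log2 fold change of Clu was -0.82 (adjusted p = 0.0472), that of Cd55 -0.78 (adjusted p = 0.107) and that of C8a 0.58 (adjusted p = 0.0939). Without the 2 libraries above 40%, Cd55, Clu, C8a and Hc all passed, with adjusted p values of 0.0448, 0.0251, 0.0198 and 0.0279, in a fit that called 625 of 14714 genes higher and 1086 lower. Among libraries of at least 15%, 0 members and 15 of 14847 genes passed, and the log2 fold changes were -0.88 for Cd55, -0.79 for Clu and 0.40 for C8a.

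For C5ar1 the log2 fold change of IR-Ori against IR was -1.17 ± 0.47 with an adjusted p of 0.143 (edgeR), and 5 of 6 IR-Ori libraries lay below all IR libraries. C3ar1 had -0.64 ± 0.32 (adjusted p = 0.223). Of the further complement genes, Itgam fell in IR-Ori, to 0.357, 0.503 and 0.688 against 0.923, 1.5 and 2.09 in IR (log2 fold change -1.53 ± 0.32, adjusted p = 0.0148). Cd93 fell as well, at 0.36, 0.669 and 1.29 in IR-Ori against 1.15, 2.9 and 6.41 in IR (-2.29 ± 0.47, adjusted p = 0.0142). The IR-Ori and IR libraries did not overlap for Itgam and overlapped for Cd93. Among libraries of at least 15% mitochondrial share neither passed, at -1.36 for Itgam (adjusted p = 0.346) and -0.81 for Cd93 (adjusted p = 0.493). Cfhr3, a gene of the factor H-related family, rose: it was at 11.6, 15.4 and 23.7 in IR-Ori, at 3.75, 8.69 and 12.1 in IR and at 10.9, 13.5 and 16.5 in sham (1.06 ± 0.25, adjusted p = 0.0264). In 5 of 6 IR-Ori libraries its level was above all IR libraries, and the sham range was close to that of IR-Ori. The call was lost without IR-Ori replicate 3 or without IR replicate 4, 5 or 6 (adjusted p up to 0.0709), and among libraries of at least 15% mitochondrial share (0.63, adjusted p = 0.416). Beside these, all 8 neutrophil markers tested had negative log2 fold changes in IR-Ori against IR (median -1.81), 7 at an unadjusted p under 0.05 and 2 at an adjusted one. Of 7 monocyte markers tested, Itgam itself among them, 6 were lower at an adjusted p under 0.05 (median -1.80, edgeR). Some other lists went the same way: all 5 cholangiocyte and all 3 adipocyte markers tested had negative log2 fold changes, with 1 of each called. Of 5 erythroid markers 4 were negative and 0 called, and of 4 B cell markers 3 were positive and 0 called. The part of any of these cells in the receptor values was not tested.

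In IR-Ori against sham, 0 members and 0% of all 14595 genes passed in edgeR. At an unadjusted p under 0.05, 2 members were higher (C7 and C5ar1), where 6.35% of all genes were, and 1 lower (Mbl2), where 3.66% were; DESeq2 and limma called no member. All members overlapped between IR-Ori and sham, where 0.178% of all genes did not in the higher direction and 0.0822% in the lower one. C7 had a log2 fold change of 2.01 ± 0.51 (adjusted p = 0.374), C5ar1 1.18 ± 0.49 (adjusted p = 0.498) and Mbl2 -0.95 ± 0.44 (adjusted p = 0.498). For C5ar1, 2 IR-Ori libraries lay above all sham libraries. The median over the members was -0.09, against -0.01 over all genes.

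Within the groups, many members varied with the mitochondrial share of the library, and they went both ways. Per 10 percentage points of share, 6 of 31 members tested were higher and 6 lower at an adjusted p under 0.05 (edgeR), where 19.9% of all genes were higher and 23% lower, so the share of members was near that of all genes. Higher were Hc and Cfp (log2 change 0.35 each), C1s1 (0.29), C4b (0.27), C8a (0.26) and Cfb (0.25). Lower were Clu (-0.65), Mbl2 (-0.58), C8b (-0.49), Cfi, the protease that inactivates C3b and C4b (-0.42), Cd55 (-0.29) and Serping1 (-0.17). The members lower in libraries with a larger share included 4 of the 7 regulators, and those higher included none of them. This was not particular to regulators. Of 9 hepatocyte markers tested 4 were lower and 0 higher, and of 26 further complement genes 11 were lower and 3 higher. Without the 2 libraries above 40%, all 6 of the lower genes and Hc and C8a of the higher ones passed. In that fit the log2 changes of Cfp, C4b and Cfb were 0.40, 0.36 and 0.28 with adjusted p values of 0.0511, 0.0555 and 0.0563, and that of C1s1 was 0.24 (adjusted p = 0.257). Median transcript GC content was 50% in the 6 higher members, 48.7% in the 6 lower ones and 49.1% in the rest. Over all genes tested with a GC value it was 53.5%, 47.7% and 50.2% in the same order, and no relation to GC content was tested. Neither anaphylatoxin receptor passed, with 0.20 ± 0.20 for C5ar1 and -0.00 ± 0.15 for C3ar1.

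**Figure D4:**
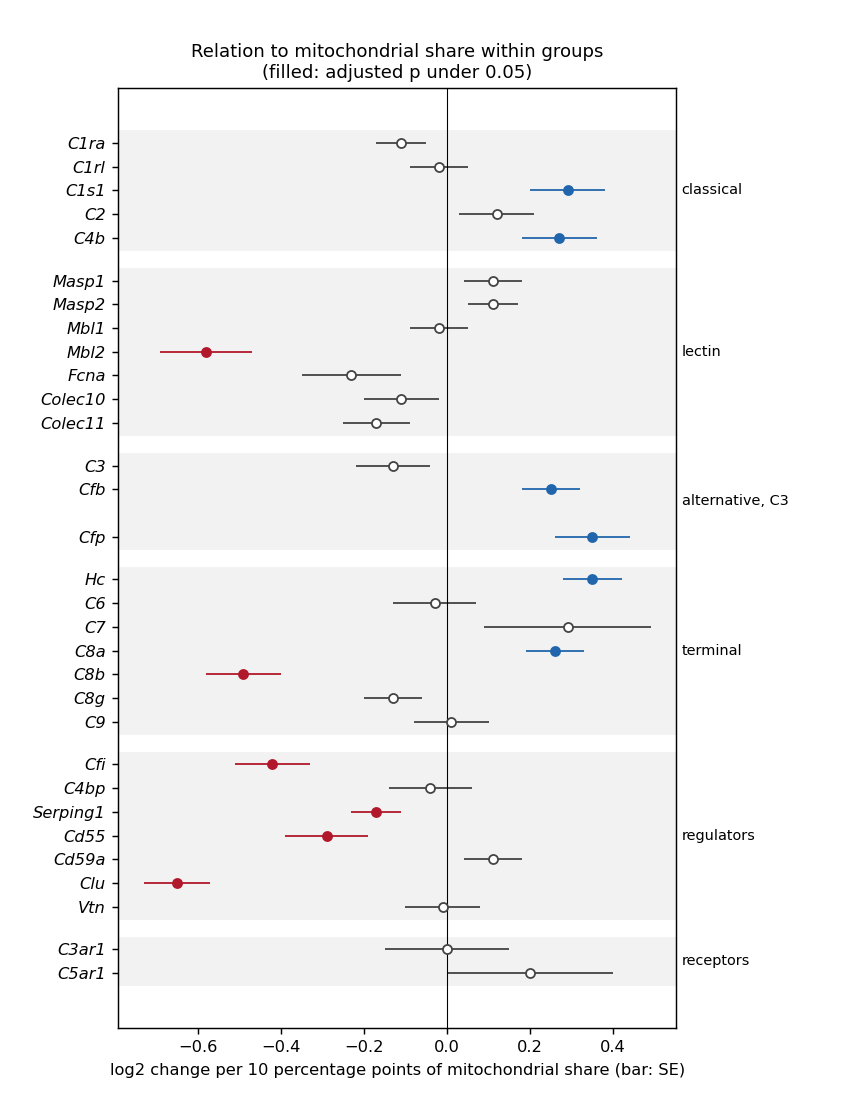
Log2 change of each complement gene per 10 percentage points of mitochondrial share, within groups (x axis; points with SE bars; filled blue, higher, or red, lower, where the adjusted p is under 0.05). Clu at -0.65 and Hc and Cfp at 0.35 lie at the ends, and 4 of the 7 regulators are filled red.

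C8a and C8b encode the alpha and beta chains of C8, which are needed together in the membrane pore, and lie side by side on chromosome 4, C8b at 104623514 to 104661745 on the plus strand and C8a at 104672876 to 104733595 on the minus strand (GRCm39, the build of the table). C8b was at 17.3, 34.9 and 78.5 in IR-Ori, at 32.3, 48 and 96.1 in IR and at 21.2, 64.5 and 94.6 in sham. Their levels went opposite ways with the mitochondrial share. The level of C8a was 2.29 to 14 times that of C8b in IR-Ori (median 7.1), 1.08 to 6.05 times in IR (median 3.07) and 2.04 to 11.3 times in sham (median 3.37). The lowest ratios were in IR-Ori replicate 5, IR replicate 6 and sham replicate 1, each with the smallest mitochondrial share of its group. The highest in IR and sham were in replicates 1 and 2, each with the largest share of its group. In IR-Ori the highest was in replicate 1 (share 29.4%), whereas replicate 6, with the largest share (32%), had a ratio of 6.19. C8g, the gamma chain from chromosome 2, was 2.09 to 7.29 times C8b in IR-Ori, 1.51 to 4.22 times in IR and 1.84 to 4.37 times in sham. Of the mannose-binding lectins only Mbl2 varied with the share, with -0.02 ± 0.07 for Mbl1 (adjusted p = 0.817). Mbl1 was at 0.458 to 1.65 times Mbl2 in IR-Ori, 0.382 to 1.21 times in IR and 0.278 to 1.63 times in sham.

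**Figure D5:**
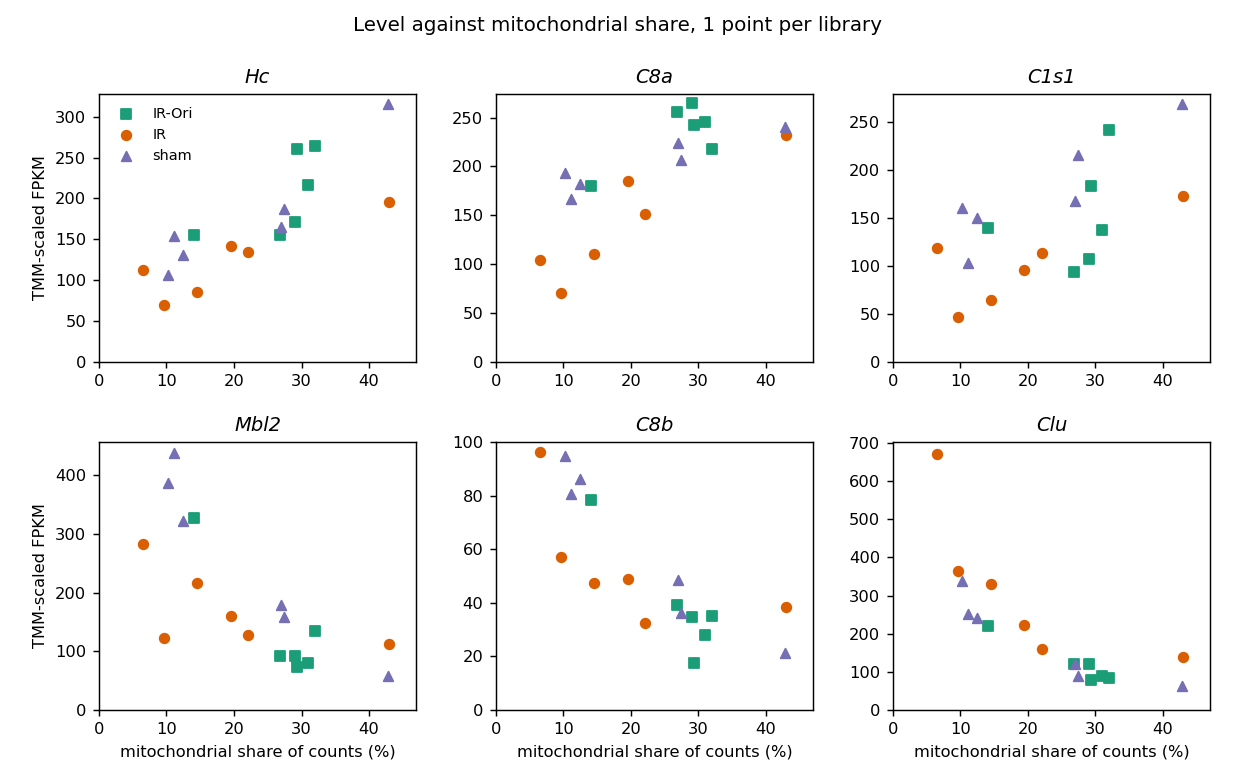
Level of 6 complement genes (y axis, TMM-scaled FPKM) against the mitochondrial share of counts of the library (x axis, percent; 1 point per library; squares IR-Ori, circles IR, triangles sham). Hc, C8a and C1s1 in the upper row are higher towards the right, Mbl2, C8b and Clu in the lower row are lower, and Clu runs from 673 in the IR library with the smallest share to 61.2 in the sham library with the largest share of its group.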

How the data were processed

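Counts per Ensembl gene and FPKM for 18 libraries were deposited in 1 table by the authors. The submitters' processing notes name cutadapt 1.9.1, HISAT2 2.2.1, the build GRCm39 and DESeq2, the last without a version. Counting tool, strand setting and annotation release: not given in the sources used here. As deposited, counts are unscaled whole numbers. The authors' FPKM divide them by exonic size and library total, mitochondrial genes included: recomputation returned 100% of the deposited FPKM within 0.0051. Count columns all differed (lowest chi-square per gene within a group, 16), so each was taken as a sample. Nothing in the labels tells whether libraries come from separate mice, so p-values measure the spread between samples, which may be technical.

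Genes passing filterByExpr (minimum count 10, minimum total 15; 14595 of 56691) were fitted with edgeR 4.0.16 in R 4.3.3, with TMM scaling and 1 quasi-likelihood model with a group term over all 18 libraries (15 residual degrees of freedom). Tests were two-sided, Benjamini-Hochberg adjusted over all genes tested, at a threshold of 0.05. The SE is the size of the log2 fold change divided by the square root of F. The common biological coefficient of variation was 0.3984, larger than counting error at these depths except for genes with few counts. The mitochondrial share was a numeric term beside group for the slopes. Alternatives were DESeq2 1.42.0, limma 3.58.1 on log2(FPKM + 1) and log2(FPKM + 0.1), other scalings and filters, subsets of libraries, a replicate block and each library left out. The scripts were tested on simulated data. Transcript GC content came from GENCODE M21 by gene identifier.

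The members and lists were chosen with earlier results of these data known. Lowest, median and highest levels are given for members that passed the threshold, or had a log2 fold change of at least 1 at an unadjusted p under 0.05, or were among the 3 smallest p values where none passed, and for C3, C4b, Hc, Mbl1, Mbl2, Cfb, C9, Serping1, C3ar1 and C5ar1. Further complement genes are named where they passed, up to 4 per list. C5ar2, Vsig4, Masp2, Cfd and C8b were added after their values were seen.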

Additional observations from a re-analysis of the deposited data

Results flagged for a closer look

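Each group of 6 libraries was searched for 1 library far from the other 5. The rule was a gap to the nearest library, over the range of the group, above Dixon's 95% critical value. Its rate of 1 group in 20 assumes independent, normally distributed values. The levels were not logged and all groups come from the same 18 libraries, so that rate is no measure of chance here. Of the 96 groups formed by 32 genes and 3 groups, 13 held such a library, each time above the other 5. In IR-Ori replicate 5, the IR-Ori library with the smallest mitochondrial share (14.1%), this held for Mbl2 at 327 (next library 134), C8b at 78.5 (39), Serping1 at 226 (157) and Clu at 219 (121), all genes whose level was lower with a larger share. In IR replicate 6, with the smallest share of all (6.52%), it held for C3 at 1696 (969), Cfi at 266 (121) and Serping1 at 239 (165). In sham replicate 1, with the smallest share in sham (10.3%), it held for Masp1 at 20.5 (16.4) and Cd55 at 3.22 (1.72). In sham replicate 5 it held for both anaphylatoxin receptors, C5ar1 at 0.989 (0.354) and C3ar1 at 0.426 (0.281). The remaining values were Cfd at 0.67 in IR-Ori replicate 2 (0.212) and at 1.63 in sham replicate 6 (0.493), on few counts. All levels are TMM-scaled FPKM. IR-Ori replicate 5 was also in the fit of the slopes on mitochondrial share, so its values and those slopes are not independent.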

How the results depend on the processing

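For IR against sham, the 1 member higher became 2 with DESeq2, 3 with mitochondrial share as covariate, 2 with replicate block and mitochondrial share, and 0 among libraries with a share of at least 15%; leaving out 1 library gave 1 to 2. The 1 member lower became 2 with DESeq2, RLE size factors, without mitochondrial genes, with mitochondrial share as covariate or without the libraries above 40%, 3 with replicate block and mitochondrial share, and 0 with no filter, the 3 limma fits, only the 2 groups compared, the replicate block or a share of at least 15%; leaving out 1 library gave 0 to 5. For IR-Ori against IR, DESeq2 gave 1 higher and 2 lower in place of 0 and 0, mitochondrial share as covariate 1 lower, and the fit without the libraries above 40% 2 higher and 2 lower; leaving out 1 library gave 0 to 1 higher and 0 to 2 lower. For IR-Ori against sham all counts stayed at 0. Without the libraries above 40%, the members higher with mitochondrial share were 2 in place of 6, although the log2 changes of Cfp, C4b and Cfb were as large as before; that fit was added after seeing the data. Of the member comparisons under all alternatives, 2796 kept their side of the threshold, and those not called also stayed within the SE. A further 53 stayed uncalled but moved by the SE or more, 36 came past the threshold and 16 lost it. No sign changed where either fit passed, but signs of uncalled members did. For example, C4bp in IR against sham went from -0.15 to 0.38 among libraries with a share of at least 15%. Fits under 15% used 3 IR and 3 sham libraries and gave no value with IR-Ori, of which 1 library remained. In IR-Ori against IR, Cd93 also lost its call with limma without a filter (adjusted p 0.103) and with replicate block and mitochondrial share (0.11), and Cfhr3 with these (0.0698 and 0.0666) and with only the 2 groups compared (0.0693). The cause of these changes was not tested.

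Replicate numbers are shared between groups, but same-numbered libraries did not deviate together throughout: correlations of their deviations ran from -0.441 to 0.335 for IR and sham, 0.0124 to 0.418 for IR-Ori and IR (4 of 6 over 0.1) and -0.36 to 0.302 for IR-Ori and sham, and 2 libraries correlated best with their own number. With the replicate block, 1 member higher and 0 lower passed in IR against sham, and 0 in the other 2 comparisons; in IR-Ori against IR, Cd93 and Cfhr3 had adjusted p values of 0.0619 and 0.0556. Depth limits C5ar1, C3ar1, C7 and Cfd, with under 120 counts per library.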
